A study of Homo sapiens with 6 samples.

Results

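The major histocompatibility complex (MHC) class II genes and their transactivator CIITA were followed in 4 RNA libraries of cervical cancer cell lines in which p63, a relative of p53 that drives genes of squamous epithelia, was lowered or raised according to the labels. The 5 genes CIITA, CD74, HLA-DRB1, HLA-DPB1 and HLA-DQB1 were taken by name, with every transcript row. The SiHa table held all 5 in 9 of its 16600 rows (9490 genes), and the ME-180 table held 4 of them in 6 of its 15189 rows (8798 genes), with no row for HLA-DPB1. ME-180 and SiHa are established cervical carcinoma lines. ME-180 cells gave a control library, named plko in the labels, and a library labelled knockdown, named shp63. SiHa cells gave a vector library and a library of cells overexpressing p63. Growth was in medium with serum, with no added cytokine named in the labels. Each group had 1 library, so every difference lies between 2 libraries, no test of the conditions was possible, and each 95% interval covers counting error only. The series also holds a p63 chromatin immunoprecipitation from ME-180 cells and its input, which were not used here.

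MHC class II molecules are pairs of an alpha and a beta chain (HLA-DR, HLA-DP and HLA-DQ) that show peptides to helper T cells. The invariant chain CD74 guides them through the cell, HLA-DM loads the peptide and HLA-DO restrains HLA-DM. CIITA is the switch of the set: it binds no DNA itself but docks on RFX, CREB and NF-Y, which sit on the X and Y boxes shared by class II and CD74 promoters. Professional antigen-presenting cells express the set at all times, and most epithelial and tumour cells do so after interferon gamma, which induces CIITA.

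The shared promoter elements are shown for CD74, the 3 HLA members and HLA-DRB5, because these genes are where the values below run alongside or apart from CIITA. Sequences are from RefSeq promoters of GRCh38.p14, where 4 of the 5 genes had an entry and CIITA did not. Each run is 72 bases on the gene's own strand, and capitals mark matches to ATTGG, the NF-Y core of the Y box, or its reverse complement CCAAT, and to GNAAC, an RFX core of the X box, on either strand.
CD74 (chr5:150412952-150413023, minus strand): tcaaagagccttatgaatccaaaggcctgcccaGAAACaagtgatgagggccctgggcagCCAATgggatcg
HLA-DRB1 (chr6:32589883-32589954, minus strand): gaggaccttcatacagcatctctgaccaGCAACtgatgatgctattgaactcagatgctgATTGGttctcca
HLA-DRB5 (chr6:32530366-32530437, minus strand): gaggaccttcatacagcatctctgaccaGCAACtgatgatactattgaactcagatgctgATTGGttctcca
HLA-DQB1 (chr6:32666734-32666805, minus strand): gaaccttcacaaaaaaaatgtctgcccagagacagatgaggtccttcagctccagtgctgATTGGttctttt
HLA-DPB1 (chr6:33075831-33075902, plus strand): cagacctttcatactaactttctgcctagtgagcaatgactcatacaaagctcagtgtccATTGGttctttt

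The HLA-DRB1 and HLA-DRB5 runs shared 71 of 72 bases, HLA-DRB1 and HLA-DQB1 shared 44, and HLA-DRB1 and HLA-DPB1 shared 37. CD74, whose CCAAT lies on the other strand, shared 20 with HLA-DRB1. ATTGG on either strand was found in 12 of 14 promoter entries (13 genes of the class II list), beside 34.6% of all 35116 promoters of the same length, and the 2 entries without it were both of HLA-DPA1. GNAAC was found in 13 of 14 entries beside 82.4% of all promoters, and within the printed runs in CD74 and the HLA-DRB genes. TGACG, a CREB core, was found in 6 of 14 entries beside 24.6%, and TTCNNNGAA, a STAT element, in 2 of 14 beside 7.66%. The p53 family element, searched as a pair of CATG cores with 6 bases between, was found in 0 of 14 beside 0.373%. A match describes the letters in this window and is not a bound site. Lack of a match to these short strings does not show that a box is absent.

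Across the whole tables, the SiHa libraries were close and the ME-180 libraries stood far apart. Of 4983 ME-180 genes that reached 100 counts in either library, 289 had 3 or fewer in the other, against 1 of 5122 in SiHa. Row totals were between 10046579 and 14207637 counts, and CPM below are counts per 1000000 of these totals. The tables hold rows unevenly. For RefSeq mRNA identifiers with 6 digits, the ME-180 table has 75.5 rows per 100 numbers up to 1299 and 14.8 per 100 over the next 2000, with median summed counts of 525 and 9. The change comes at 2999 in the SiHa table, with medians of 783 and 15. Several HLA and CD74 rows of ME-180 lie in the sparse range, HLA-DRA has no row in the SiHa table used here, and the lack of a row says nothing about a gene's expression. HLA genes are close copies of each other and vary between people, so reads can be split between copies or lost where an allele differs from the reference. A read can also count for several transcripts of 1 gene.

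TP63 itself followed the labels. Its row NM_001114980.1, a delta N alpha form, was at 0.493 CPM in the SiHa vector library and 13.1 CPM in the overexpression library. In ME-180 it was at 520.1 CPM in the control and 0.597 CPM in the library labelled knockdown.

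Raising p63 in SiHa asks whether class II genes follow CIITA. CIITA and CD74 were higher in the overexpression library, HLA-DRB1 was higher by less than 2-fold, and HLA-DPB1 and the main HLA-DQB1 rows lay below the vector level. CIITA NM_000246.3 had 66 vector counts and 141 overexpression counts, 4.65 against 10.3 CPM, a CPM ratio of 2.22 (95% interval 1.64 to 3.02). On the scale used for calls, the log2 ratio of CPM plus 1, CIITA stood at 1.001, just inside the 2-fold line. CD74 NM_001025159.2 had 44 counts against 162, or 3.10 against 11.8 CPM, a ratio of 3.82 (2.72 to 5.46) and a log2 ratio of 1.65. Its transcript NM_001025158.2 had 27 against 114 counts, a ratio of 4.38 (2.86 to 6.94). Both CD74 rows therefore had a larger ratio than CIITA, with intervals that overlap that of CIITA at their lower ends.

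**Figure D1:**
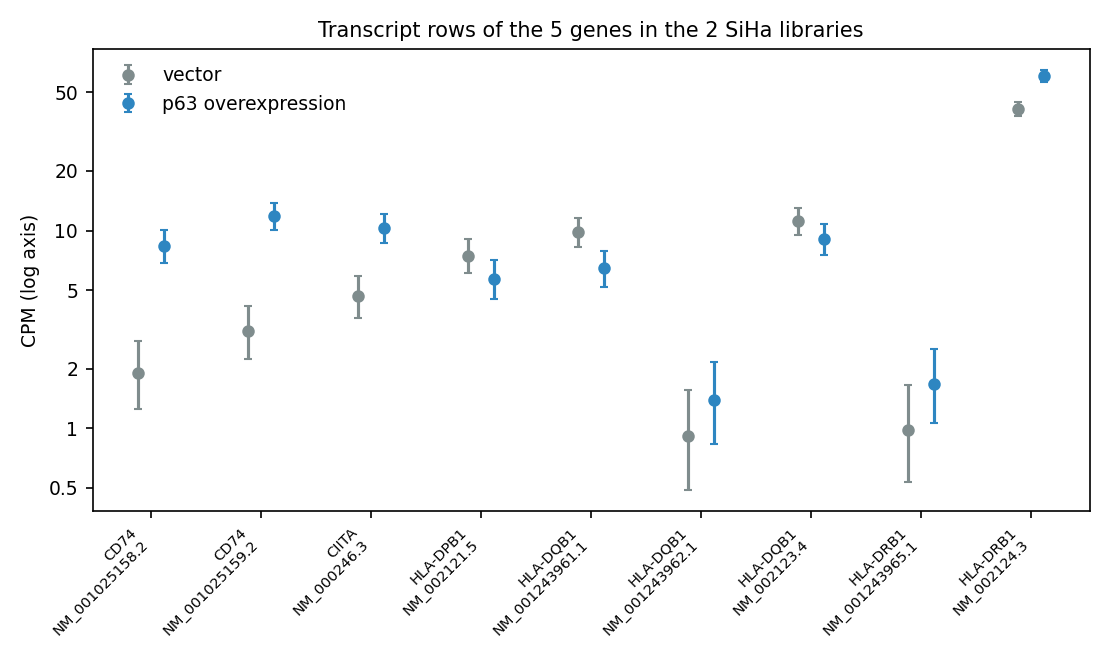
CPM on a log axis for every transcript row of the 5 genes in the SiHa vector (grey) and p63 overexpression (blue) libraries, with 1 library per group and bars for the 95% Poisson counting interval. CIITA moves from 4.65 to 10.3 CPM and CD74 NM_001025159.2 from 3.10 to 11.8 CPM with intervals apart, while HLA-DPB1 lies at 7.46 and 5.70 CPM with intervals that overlap.

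HLA-DRB1, the polymorphic beta chain of HLA-DR, had most of its counts in NM_002124.3. That row had 585 counts against 826, 41.2 against 60.3 CPM, a ratio of 1.47 (1.32 to 1.63), and its interval ended just below that of CIITA. The short row NM_001243965.1 had 14 against 23 counts, a ratio of 1.70 (0.841 to 3.58). Both rows were higher with overexpression, and for the small row the interval includes 1.

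HLA-DQB1, the beta chain of HLA-DQ, had fewer counts with overexpression in its 2 larger rows. NM_002123.4 had 158 counts against 124, 11.1 against 9.06 CPM, a ratio of 0.814 (0.639 to 1.04). NM_001243961.1 had 140 against 88 counts, a ratio of 0.652 (0.494 to 0.858). The third row, NM_001243962.1, had 13 against 19 counts, a ratio of 1.52 (0.711 to 3.34). HLA-DPB1, the beta chain of HLA-DP, had 106 counts against 78, 7.46 against 5.70 CPM, a ratio of 0.764 (0.563 to 1.03). The intervals of HLA-DPB1 and of both larger HLA-DQB1 rows lay wholly below that of CIITA.

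Of the 5 genes, CIITA and CD74 were at least 2-fold higher and 0 were lower, beside 0.572% of 6996 SiHa genes higher and 0.743% lower. An interval wholly above 1 was found for 3 of the 5 (CIITA, CD74 and HLA-DRB1, each by its leading row), beside 14.7% of all genes. None of the 5 had a leading row with an interval below 1, beside 23.8% of all genes. In the authors' deposited table, the log2 fold changes were 2.17 and 1.97 for the CD74 rows with adjusted p of 0.028 and 0.038, 1.19 for CIITA with an adjusted p of 1, and 0.59 for HLA-DRB1 NM_002124.3 with an adjusted p of 1. Those p-values come from 2 libraries without replicates.

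**Figure D2:**
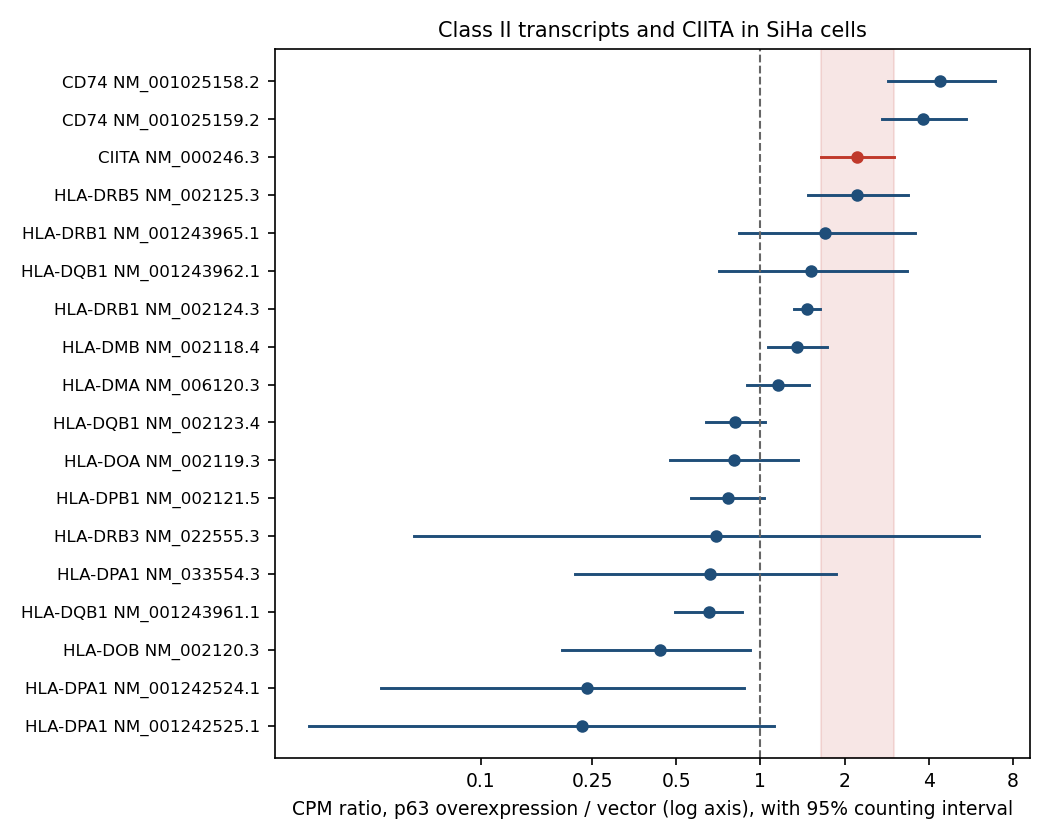
CPM ratio of p63 overexpression to vector in SiHa on a log axis, for each class II, CD74 and CIITA row with counts in both libraries, ordered by the ratio, with 95% counting intervals and 1 library per group. The red point and band are CIITA (1.64 to 3.02), the dashed line is a ratio of 1, and the rows run from CD74 at 4.38 to HLA-DPA1 at 0.231.

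The other class II genes of SiHa had ratios at or below that of CIITA. HLA-DRB5, a second DR beta chain carried by only some people, had 37 counts against 79, a ratio of 2.22 (1.48 to 3.37), close to that of CIITA. HLA-DMB, the beta chain of the peptide loader, had 120 against 157 counts (1.36, 1.06 to 1.74). Its partner HLA-DMA had 122 against 136 (1.16, 0.899 to 1.49). The HLA-DO chains, which restrain HLA-DM, lay lower, with HLA-DOB at 26 against 11 counts (0.439, 0.196 to 0.920) and HLA-DOA at 36 against 28 (0.807, 0.474 to 1.36). HLA-DPA1, the alpha chain of HLA-DP, had 13 against 3, 9 against 2 and 11 against 7 counts in its 3 rows, all under 1 CPM. HLA-DRB3 had 3 against 2 counts and HLA-DQA1, the alpha chain of HLA-DQ, 0 against 1, which are too few to compare.

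Of the 18 genes of the list of class II molecules and CD74, 12 had a row in SiHa and 9 reached 1 CPM in a library. CD74 was at least 2-fold higher and 0 were lower, beside 0.572% of all SiHa genes higher and 0.743% lower. Intervals lay above 1 for 4 genes (CD74, HLA-DRB1, HLA-DRB5 and HLA-DMB), beside 14.7% of all genes. They lay below 1 for HLA-DOB, beside 23.8%, and included 1 for the other 4. The median log2 ratio of the 9 was 0.19, beside -0.05 for all 6996 genes, and the range was -0.65 to 1.65. With transcript rows summed by gene, the median of the 10 genes that then reached 1 CPM was -0.0125.

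The DNA-bound partners of CIITA were nearly level in SiHa. RFX5, a subunit of RFX, had 986 counts against 913 (ratio 0.961, 0.877 to 1.05), and RFXAP, another subunit, 406 against 350 (0.895, 0.773 to 1.03). CREB1 had 442 against 410 counts (0.963, 0.840 to 1.10). The NF-Y subunits were NFYA at 337 against 285 (0.878, 0.747 to 1.03) and NFYC at 290 against 331 (1.18, 1.01 to 1.39). CIITA was the only 1 of the 6 measured transcription factor genes past 2-fold, beside 0.572% of all SiHa genes higher and 0.743% lower. The median log2 ratio of the list was -0.05.

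In SiHa, 0 genes passed 2-fold in each neighbouring list of this paragraph and the next. Over all SiHa genes 0.572% were higher and 0.743% lower, so a count of 0 does not set these lists apart. Of the class I presentation genes, 10 of 19 had a row (median log2 ratio 0.18, beside -0.05 for all genes), 7 with intervals above 1, beside 14.7% of all SiHa genes. Among them were PSMB10, an immunoproteasome subunit (ratio 1.41, 1.34 to 1.48), and ERAP1, a peptide-trimming enzyme (1.20, 1.02 to 1.42). HLA-C, a class I heavy chain, was the 1 with an interval below 1 (0.787, 0.741 to 0.836). Of the interferon gamma pathway, 7 of 24 genes had a row (median 0.25). Intervals lay above 1 for 4 of the 7 and below 1 for 1, beside 14.7% and 23.8% of all genes. Among the 4 were GBP1, an interferon-induced GTPase, at 498 against 719 counts (1.498, 1.33 to 1.68), and IFNGR1, a receptor chain, at 1.34 (1.25 to 1.43). IRF8, a transcription factor of myeloid and B cells, was at 123 against 64 counts (0.540, 0.393 to 0.736).

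Proteases and adaptors of the class II peptide supply had 9 of 12 genes with a row (median 0.12). The tetraspanin CD82 was at 227 against 363 counts (1.66, 1.402 to 1.97), MARCH8, a ubiquitin ligase, at 48 against 27 (0.584, 0.350 to 0.954), and CTSD, a cathepsin, at 13244 against 15649 (1.23, 1.20 to 1.26). The list of chromatin factors and other genes reported to silence CIITA or class II had 9 of 14 genes with a row. Their log2 ratios ran from -0.51 to -0.03, with a median of -0.24. The median of all SiHa genes, -0.05, was also below 0. Intervals lay below 1 for 4 of the 9, beside 23.8% of all SiHa genes, and included 1 for the other 5. The list held EZH2, the methyltransferase of Polycomb (490 against 328 counts, 0.695, 0.602 to 0.801), and the transcription factor MYC (0.711, 0.673 to 0.752). It also held PRDM1, a transcriptional repressor active in plasma cells (46 against 29, 0.654, 0.396 to 1.06). Costimulatory and checkpoint genes reached 1 CPM in 3 of 8 (median 0.21): ICAM1, an adhesion ligand (1.16, 1.09 to 1.23), CD58, another (1.19, 1.02 to 1.38), and CD40, a receptor for T cell help (0.990, 0.871 to 1.13).

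Leukocyte markers were measured beside these genes. Of 20 markers, 12 had a row in SiHa, not including PTPRC, the common leukocyte antigen, and 9 were under 1 CPM in both libraries. Their summed level was 128 CPM with the vector and 139 with overexpression, nearly all from CD14 and CD68, and 2.75 and 2.85 CPM without those. At 0 were LST1 with the vector and ITGAX and CD79B with overexpression. CD79A, a B cell receptor chain, had 1 count against 21 (ratio 21.8, 3.51 to 901) and was the 1 marker past 2-fold. Epithelial keratins were abundant, with KRT8 at 1241 and 2275 CPM, and 3 of 6 epithelial markers were at least 2-fold higher with overexpression (KRT5, KRT14 and KRT19), beside 0.572% of all genes. The part of these markers in the class II values was not tested.

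In the ME-180 pair, CIITA and most of the differing HLA genes had their counts in opposite libraries. CIITA, at 21 counts in the control, was at 0 in the library labelled knockdown, where HLA-DQB1, HLA-DPA1 and HLA-DRB5 had 255, up to 103 and 36 counts against 0 in the control. CIITA was thus 1.94 CPM (95% interval 1.20 to 2.97) against 0, at least 6.51-fold lower against a floor of 3 counts per library, with a lower 95% limit of 4.84. CD74 had few counts in either library. Its largest row, NM_004355.3, had 13 counts against 3, 1.20 against 0.299 CPM, a 4.03-fold lower level (1.11 to 22.0). The other CD74 rows had 6 against 1 and 2 against 2 counts. All CD74 rows of ME-180 were near or under 1 CPM, and none passed 2-fold on the log2 scale of CPM plus 1 (the largest row stood at -0.76).

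HLA-DQB1 NM_001243961.1 had 0 control counts against 255 with the labelled knockdown, 25.4 CPM (22.4 to 28.7). It was at least 91.4-fold higher against a floor of 3 counts, with a lower 95% limit of 73.8. The only HLA-DRB1 row, NM_001243965.1, had 0 against 4 counts, which do not show a difference at this depth. It was the small row in SiHa, and NM_002124.3, the main row there, was not among the ME-180 rows. The level of HLA-DRB1 in ME-180 therefore cannot be read from it. The values of HLA-DQB1 NM_001243961.1 in the 2 lines stand side by side as 0 (control) and 25.4 CPM (labelled knockdown) in ME-180, and 9.85 (vector) and 6.43 CPM (overexpression) in SiHa. In both pairs the library with more TP63 counts had the lower value.

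**Figure D3:**
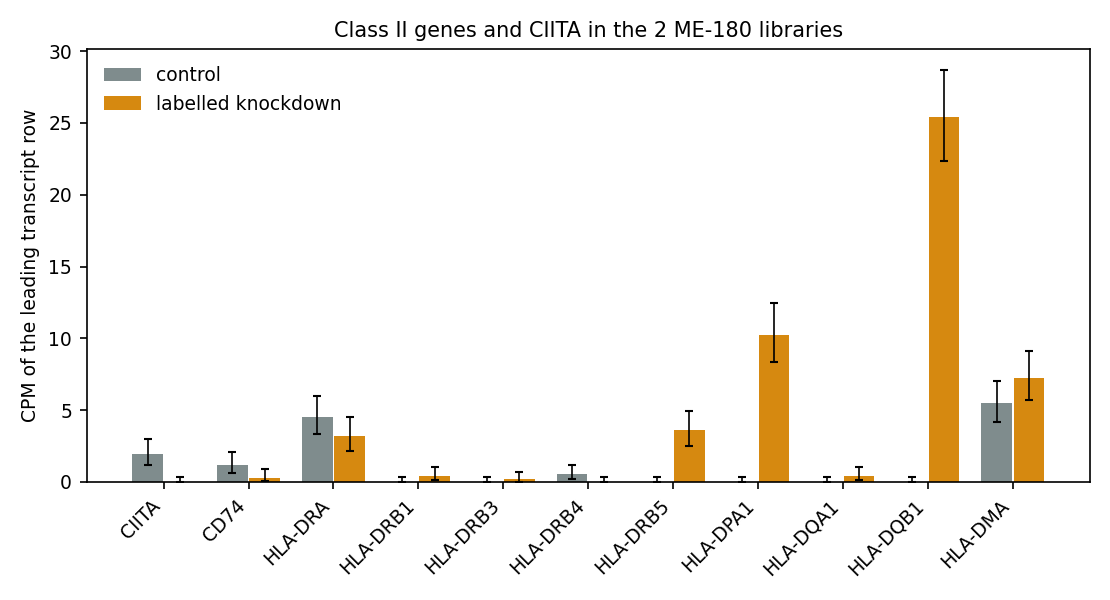
CPM of the leading transcript row of CIITA and of each class II gene with a row in ME-180, as bars from 0 for the control (grey) and the library labelled knockdown (orange), 1 library each, with 95% Poisson counting intervals. HLA-DQB1 (25.4 CPM), HLA-DPA1 (10.3) and HLA-DRB5 (3.58) have a bar in the library labelled knockdown alone, CIITA (1.94) in the control alone, and HLA-DRA and HLA-DMA in both.

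The other class II genes in ME-180 differed by chain. The HLA-DPA1 rows had 0 control counts against 94, 84 and 103, at least 33.7-fold, 30.1-fold and 36.9-fold higher against the floor, with lower 95% limits of 26.9, 23.96 and 29.5. HLA-DRB5 had 0 against 36 counts, at least 12.9-fold higher (lower 95% limit 9.97). HLA-DRA, the shared alpha chain of HLA-DR, had 49 against 32 counts, 4.54 against 3.19 CPM, a ratio of 0.702 (0.435 to 1.12). HLA-DMA had 59 against 73 counts (1.33, 0.931 to 1.91). The DR beta genes DRB3, DRB4 and DRB5 are carried on different haplotypes, and a cell has only some of them. HLA-DRB4 had 6 control counts against 0, at least 1.86-fold lower against the floor (lower 95% limit 1.10), HLA-DRB3 had 0 against 2, and HLA-DRB5 0 against 36. The counts of DRB4, few and under 1 CPM, and those of DRB5 thus lay in different libraries of the pair, both labelled ME-180. Whether both libraries come from cells of the same line was not tested, and in every ME-180 ratio such a difference cannot be told apart from an effect of lower p63.

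Of the class II list in ME-180, 10 of 18 genes had a row and 6 reached 1 CPM. At least 2-fold higher were 3 (HLA-DQB1, HLA-DPA1 and HLA-DRB5) and 0 were lower, beside 28.2% of 6783 genes higher and 20.6% lower. Intervals lay above 1 for the same 3, beside 50.8% of all genes, and below 1 for CD74, beside 34.5%. The median log2 ratio of the 6 was 1.28 beside 0.28 for all genes, from -0.76 for CD74 to 4.72 for HLA-DQB1. The 3 higher genes reached 1 CPM only in the library labelled knockdown, so this median and the count of 3 depend on the floor's choice of genes. With no floor, the median over the 10 genes with a row was 0.42. Of the 4 members with a row, 3 reached 1 CPM, with CIITA lower at -1.56, HLA-DQB1 higher and CD74 not past 2-fold.

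RFX subunits were higher in the library labelled knockdown. RFXAP had 215 against 1126 counts (ratio 5.63, 4.86 to 6.55) and RFX5 773 against 1796 (2.50, 2.29 to 2.72). NFYC had 281 against 299 counts (1.14, 0.969 to 1.35). Of the 4 transcription factor genes with a row, RFXAP and RFX5 were thus at least 2-fold higher, beside 28.2% of all ME-180 genes. CIITA was lower, beside 20.6%. The log2 ratio of RFX5 was 1.31, and with TMM scaling it was 1.03, close to the 2-fold line.

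Most measured class I genes were lower in that library. Of 8 class I genes with a row, 5 were at least 2-fold lower and 0 higher, beside 20.6% and 28.2% of all ME-180 genes. The median log2 ratio was -1.26 beside 0.28 for all genes, and the lower genes included ERAP1 (log2 ratio -3.15), ERAP2 (-2.46), HLA-F (-1.43) and the peptide transporter TAP1 (-1.09). HLA-C differed less, at 4654 against 3539 counts (-0.29). Of 7 peptide supply genes, 3 were lower, beside the same 20.6% of all genes: CD82 (-4.47), CTSS (127 against 4 counts, -3.19), the protease that trims the invariant chain, and CTSV (-2.50). MARCH1, a ubiquitin ligase that removes class II from the surface, was higher (20 against 56 counts, 1.21).

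Costimulatory and checkpoint genes were at least 2-fold lower in 3 of 5, beside 20.6% of all genes: CD274, which encodes PD-L1 (95 against 2 counts, -3.03), ICAM1 (-2.29) and PDCD1LG2 (19 against 0, -1.46). None of the 5 was higher, beside 28.2%. Of 6 reported silencers with a row, 3 were at least 2-fold higher and 2 lower, beside 28.2% and 20.6% of all ME-180 genes. EZH2 (1.35) and the DNA methyltransferases DNMT3B (1.20) and DNMT1 (1.04, close to the line) were higher. PRDM1 (92 against 1 count, -3.11) and TGFB1 (-1.39) were lower. Of the interferon gamma pathway, 2 of 24 genes had a row, IFNGR1 (-0.10) and IDO1, a tryptophan-degrading enzyme (-0.65), neither past 2-fold.

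**Figure D4:**
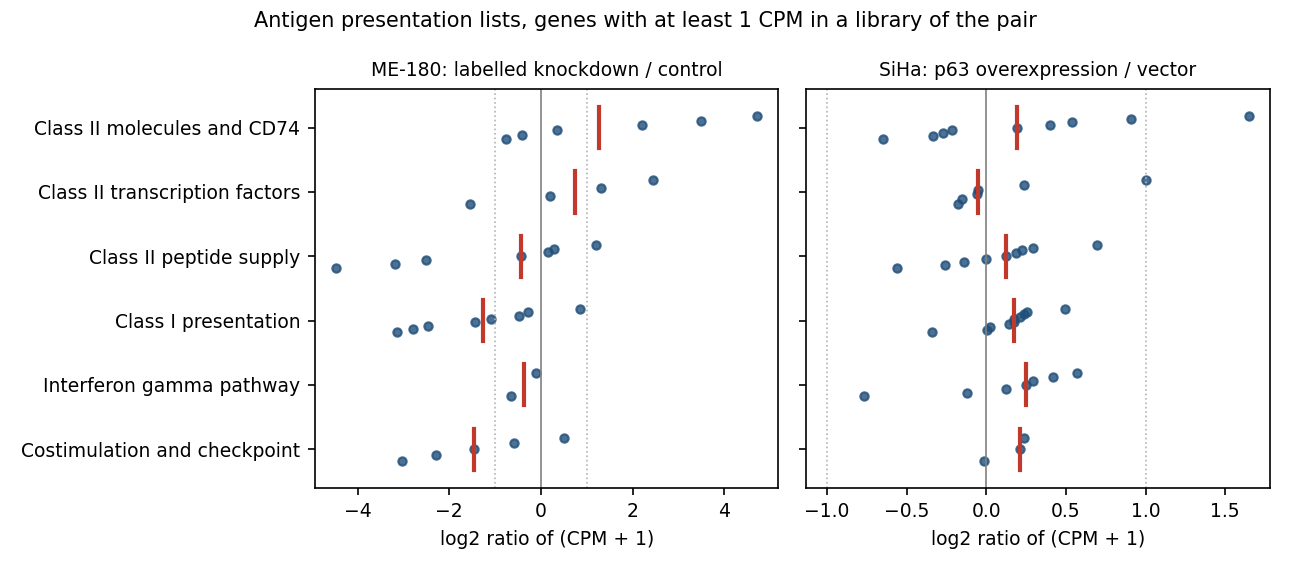
Log2 ratio of CPM plus 1 for each gene of 6 antigen presentation lists with at least 1 CPM in a library, in ME-180 (left) and SiHa (right, on a narrower axis), 1 library per group. Points are genes, red bars are list medians (class II molecules 1.28 in ME-180 and 0.19 in SiHa, class I -1.26 and 0.18), and dotted lines mark 2-fold.

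Of the 20 leukocyte markers, 12 had a row in ME-180 and 8 were under 1 CPM in both libraries. Their summed level was 55.0 CPM in the control against 10.7 CPM, and 3.42 and 6.67 CPM without CD14 and CD68. CD79B and LST1 were at 0 in the control, and CD3E was at 0 with the labelled knockdown. CD68, a lysosomal protein, had 544 counts against 38. All 4 epithelial markers with a row, among them KRT8 (-6.38), were at least 2-fold lower, beside 20.6% of all ME-180 genes. The part of these differences in the class II values was not tested, and fewer cells of a type and less RNA per cell cannot be told apart in such libraries.

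Across the 4 libraries, whose tables were scaled separately, CIITA was at 10.3 CPM in SiHa overexpression and 4.65 in SiHa vector. It was at 1.94 in ME-180 control and 0 in ME-180 labelled knockdown. The intervals of the 2 libraries of each line did not overlap. The order across the 2 lines is a description, because their rows differ and the intervals cover counting error only. CD74 NM_001025159.2 had 11.8, 3.10, 0.555 and 0.0995 CPM in the same order, and the last 2 overlapped (0.204 to 1.21 and 0.003 to 0.555). HLA-DQB1 NM_001243961.1 instead ran from the ME-180 labelled knockdown (25.4) through the SiHa vector (9.85) and SiHa overexpression (6.43) to the ME-180 control (0). Again the intervals did not overlap within either line.

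Genes whose profile over the 4 libraries was nearest to CD74 or CIITA were ranked by the Euclidean distance of centred log2(CPM + 1), over 5065 genes that reached 100 counts in any library. Nearest to CD74 NM_001025159.2 were CFI, a complement inhibitor (distance 0.51), IL32, a cytokine (0.64), CPB1, a carboxypeptidase (0.75), SAA1, an acute phase protein (0.75), and MUC1, a mucin (0.86). CFI had 390 against 868 counts in SiHa and 99 against 40 in ME-180. Nearest to CIITA were TEX40 (0.40), C2CD4D (0.43), PODNL1 (0.46), GALC, a lysosomal galactosidase (0.47), and CFI again (0.54).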

How the data were processed

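RNA was measured in 4 libraries, 1 per group, grouped by the titles in the labels. The authors deposited whole-number counts per RefSeq transcript, with their own log2 fold change and p-values, in 1 table per cell line. Per the submitters' processing notes, TopHat, Cufflinks, DESeq2 and build hg19 were used, with no role or version; how reads were counted, with or without strand and with what use of multi-mapped reads, is not given in the sources used here.

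CPM are counts per 1000000 of a table's row total. For each gene the transcript with the largest CPM over both libraries was used. Log2 ratios used CPM plus a pseudocount of 1, and a call needed 2-fold and at least 1 CPM in a library. Intervals at 95% are exact Poisson for a count and conditional binomial for a ratio (scipy 1.17.1), and a count of 0 was set to 3 counts per library for a fold. PCR copies are not independent molecules, so intervals cover counting error only. For SiHa 31 and for ME-180 32 names had turned into dates and were read from the transcript identifier. Genes are named by rule: the 5 genes and TP63, all class II molecules and their transcription factors with a row, and of other lists those past 2-fold or, where none was, the 3 with the largest ratios; other named genes were chosen after their values were seen, and some genes the rule names are not reported here. The members and lists were chosen with earlier results of these data known. Alternatives changed the pseudocount, the scaling (TMM of edgeR 4.0.16, size factors of DESeq2 1.42.0), the floor and the summing of transcripts. The calls and intervals were tested on simulated data. Peaks were not used, since no annotation of their build was at hand, and neither were transcript lengths, so levels are compared within a gene only.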

Additional observations from a re-analysis of the deposited data

Results flagged for a closer look

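HLA-DRB5 was the 1 class II gene whose counting intervals put the library with more p63 on opposite sides in the 2 lines. Its log2 ratio of CPM plus 1 was 2.20 for the ME-180 library labelled knockdown against control (0 and 36 counts) and 0.91 for SiHa overexpression against vector (37 and 79 counts). It was thus higher in the ME-180 library with less TP63 and in the SiHa library with more. HLA-DRB5 is carried on only some haplotypes, and whether both ME-180 libraries come from cells of the same line was not tested. The difference between the lines was not tested, with 1 library per group.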

How the results depend on the processing

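For the class II genes of ME-180, the median log2 ratio (1.28) moved to 2.80 with a pseudocount of 0.1, to 0.50 with 5, to 1.10 with TMM or DESeq2 scaling and to 0.42 with no floor. In SiHa the median (0.19) was 0.21 and 0.14 with these pseudocounts, 0.23 with TMM or DESeq2 scaling, 0.0110 with no floor, and turned to -0.0125 with transcript rows summed. The count past 2-fold in SiHa rose from 1 to 3 with a pseudocount of 0.1, as HLA-DRB5 (1.12) and HLA-DOB (-1.10) passed the line. CIITA fell short of 2-fold with a pseudocount of 5 in SiHa (0.67) and in ME-180 (-0.47), as did HLA-DRB5 in ME-180 (0.78), and CD74 passed it in ME-180 with a pseudocount of 0.1 (-1.71). Of the 13 genes followed in SiHa and 11 in ME-180, 0 changed direction with TMM or DESeq2 scaling or with rows summed. Summing cannot alter a gene with 1 row, and a change of pseudocount cannot alter any direction, so those settings are no check of it. TMM scaling subtracts 0.28 from every ME-180 log2 ratio before the pseudocount and adds 0.04 in SiHa. No paired analysis was possible because each group has 1 library. Depth limits the HLA-DRB1, HLA-DRB3, HLA-DRB4, HLA-DQA1 and CD74 rows of ME-180 and the HLA-DPA1 rows of SiHa, which rest on 13 or fewer counts per library.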
